A study of Rattus norvegicus with 12 samples.

Results

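The genes described here carry out DNA replication in S phase, the stage of the cell cycle in which a cell copies its chromosomes, and were followed in rat kidney collecting duct cells moved from medium of high to medium of low osmolality. The list held 48 genes, chosen by their function and grouped by the step of replication they serve. Of these, 43 were measured among the 14506 genes tested, each through its probe set of highest mean level. Mcm3, Mcm4, Pole2, Chaf1a and Fanci, the other 5, were not named on the array and are not analysed here. IMCD (inner medullary collecting duct) cells line the last stretch of the nephron, and those used here were primary cultures from kidneys of male SD rats aged 7 weeks. In all groups the cells were first grown for 4 days at 640 mOsm/kg. The groups were 300 mOsm/kg for 24 h, 640 mOsm/kg for 24 h, 300 mOsm/kg for 48 h and 640 mOsm/kg for 48 h, with 3 Affymetrix Rat Gene 1.0 ST arrays each and 12 arrays in all. The design asks how messenger RNA levels differ between cells moved to the lower osmolality and cells kept at the higher one for the same time. It also lets the later time be set against the earlier one at each osmolality.

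A chromosome is copied from many origins. In G1 the origin recognition complex, Cdc6 and Cdt1 load the Mcm helicase onto origins, which is called licensing, and in S phase the kinase Cdc7, Cdc45 and the GINS complex switch the helicase on. Primase and DNA polymerase alpha then start each strand, polymerases delta and epsilon extend it while held on the DNA by the Pcna clamp, and the fragments of the lagging strand are trimmed and joined. The supply of deoxynucleotides, the new histones and the copying of DNA methylation run alongside. Many of these genes are known targets of E2F transcription factors, which the retinoblastoma protein holds inactive until late G1, and mitosis genes peak later, in G2 and M. Collecting duct cells divide rarely in the adult kidney, while cells put into culture usually enter the cycle.

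Levels below are log2 values relative to the median gene of the same array, which is 0. They say nothing of how one gene's level compares with another's, since each probe set has its own brightness. Before centring, the array medians lay between 6.89 and 7.58 at 300 mOsm/kg and between 6.90 and 7.57 at 640 mOsm/kg for 24 h, and between 6.82 and 6.94 at 300 and between 6.81 and 6.97 at 640 for 48 h. The 2 lowest at 24 h were replicate 1 at 300 and replicate 3 at 640. Arrays also resembled each other in sets across osmolalities. The deviations from the group mean correlated at 0.83 at 24 h and 0.78 at 48 h between replicate 1 at 300 and replicate 3 at 640, at 0.84 and 0.80 between the replicates numbered 2, and at 0.58 and 0.63 between replicate 3 at 300 and replicate 1 at 640. The labels give no such pairs, so no fit used these sets as blocks, and the calls between osmolalities below come from unpaired groups. Whether replicates are separate rats or separate cultures is not in the labels, so the p-values rest on a spread between samples that may be technical only. With 3 arrays per group the precision is limited, and the median standard error of a gene's log2 difference was 0.196 over the 43 replication genes. In bulk RNA, fewer cells in S phase and less replication RNA per cell cannot be told apart.

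The promoters of 4 genes are shown because their changes are the ones described most closely below or because they carry the most E2F sequences. Each is the 250 bases before the gene's start from RefSeq (GRCr8), read 5′ to 3′ on the gene's strand, and capitals mark the E2F cores TTCCCGC and TTGGCGC on either strand. Tyms encodes thymidylate synthase, and its window is chr9:120776084-120776333 on the minus strand. Pola2, the accessory subunit of DNA polymerase alpha, has its window at chr1:212680543-212680792 on the minus strand. Mcm5, a subunit of the Mcm helicase, has its window at chr19:13488563-13488812 on the plus strand. Pola1, the catalytic subunit of polymerase alpha, has its window at chrX:62342356-62342605 on the minus strand.
Tyms: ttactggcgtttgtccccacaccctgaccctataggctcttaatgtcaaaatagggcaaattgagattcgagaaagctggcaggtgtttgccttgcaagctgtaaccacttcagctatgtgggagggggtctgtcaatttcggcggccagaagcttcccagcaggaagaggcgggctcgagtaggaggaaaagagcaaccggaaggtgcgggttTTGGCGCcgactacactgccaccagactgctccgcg
Pola2: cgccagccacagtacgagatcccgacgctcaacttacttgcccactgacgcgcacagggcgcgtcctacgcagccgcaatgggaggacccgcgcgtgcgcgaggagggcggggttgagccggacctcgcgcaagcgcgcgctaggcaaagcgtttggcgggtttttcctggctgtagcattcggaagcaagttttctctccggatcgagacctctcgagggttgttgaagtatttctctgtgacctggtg
Mcm5: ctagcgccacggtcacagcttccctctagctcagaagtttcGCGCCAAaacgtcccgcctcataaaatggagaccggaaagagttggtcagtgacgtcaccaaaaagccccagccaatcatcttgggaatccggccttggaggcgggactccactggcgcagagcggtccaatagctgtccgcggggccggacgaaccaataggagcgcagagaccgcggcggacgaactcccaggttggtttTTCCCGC
Pola1: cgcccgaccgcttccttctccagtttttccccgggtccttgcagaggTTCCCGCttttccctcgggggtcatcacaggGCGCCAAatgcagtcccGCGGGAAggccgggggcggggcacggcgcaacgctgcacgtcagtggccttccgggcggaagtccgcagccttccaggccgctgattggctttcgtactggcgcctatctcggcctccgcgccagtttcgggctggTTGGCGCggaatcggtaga
The Tyms window held 1 core, whose first base lies at -36 when the base before the start is counted as -1. That of Mcm5 held 2, at -209 and -7, and that of Pola1 held 4, at -203, -172, -155 and -19. The Pola2 window held neither run of letters, from which nothing follows about E2F at that gene.

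Windows of 300 bases (250 before the start and 50 after it) were given for 38 of the 43 measured genes, and Cdc6, E2f1, Rrm2, Orc1 and Ccne2 had none. At least 1 of the E2F cores occurred in 21 of these 38 genes (55.3%), beside 9.81% of the 11968 tested genes with a window (and 6.26% of all 33469 windows of this length). TTCCCGC was found in 42.1% of the 38 genes and 6.56% of tested genes, and TTGGCGC in 26.3% and 3.63%. CCAAT, the box bound by NF-Y, was found in 57.9% of the 38 genes and 39.0% of tested genes. On the other strand it reads ATTGG, which overlaps TTGGCGC where an A stands before it. TTTGAA or TTCGAA, the CHR cores of many mitosis genes, occurred in 21.1% of the 38 genes and 17.3% of tested genes. The median log2 difference at 24 h was 0.34 in genes with an E2F core and 0.22 in those without. For CCAAT the medians were 0.35 with and 0.21 without, and for the CHR cores 0.18 with and 0.35 without. These are given as a description, and the split by E2F core was thus much like that by CCAAT.

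After 24 h, most replication genes were slightly higher at 300 than at 640 mOsm/kg, and no single gene passed the test, in a fit of unpaired groups. Of the 43 genes 37 were higher at 300, where 40.9% of all genes tested were higher, and the median log2 difference (300 minus 640) was 0.26 against -0.04 over all genes. The adjusted p of limma (Benjamini-Hochberg over the 14506 genes) was under 0.05 for 0 of the 43 genes, beside 0.655% of all genes (0.276% higher and 0.379% lower), and the unadjusted p was under 0.05 for 8, all higher at 300, beside 2.43% of all genes. In 10 of the 43 all 3 arrays at 300 lay above all 3 at 640, beside 3.7% of all genes, and in 0 of 43 they lay below, beside 4.86%. The count of genes higher at 300 lay between 33 and 38 when any 1 array was left out, and was 36 without the pair of low-median arrays, where the median was 0.32. Under array weights 10 genes passed the test, Tyms, Uhrf1, Prim1, Pole, Mcm10, Rrm2, Ccne2, Cdt1, Chaf1b and Prim2, all higher at 300, beside 3.67% of all genes called higher under them.

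**Figure D1:**
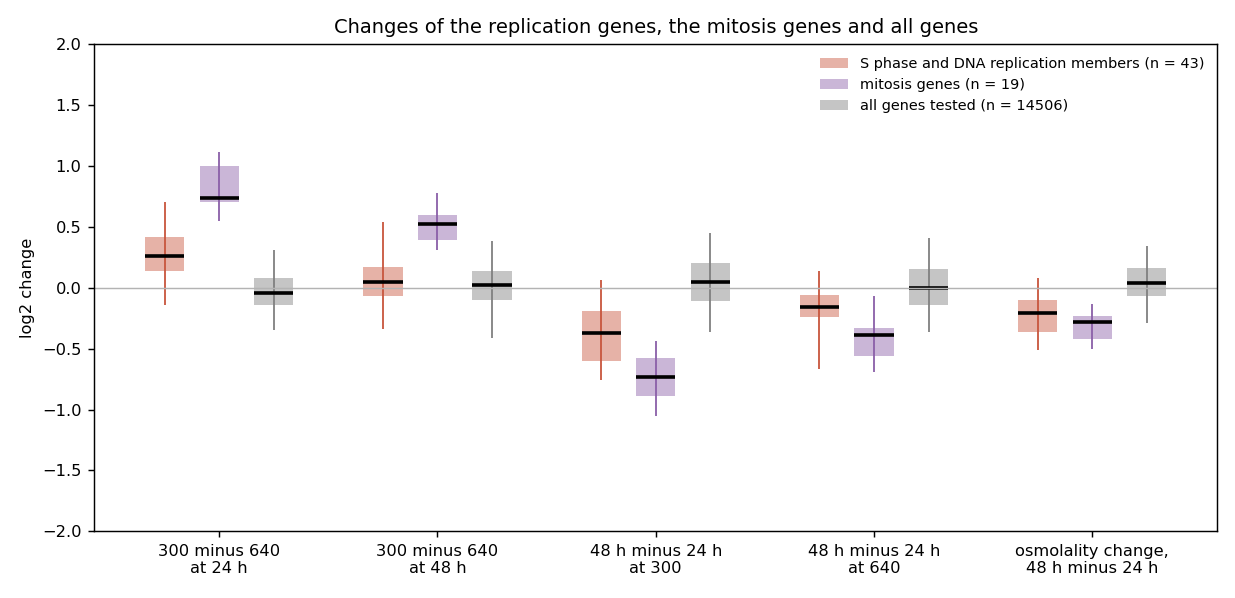
Distribution of log2 changes (vertical axis) in the 5 comparisons (horizontal axis) for the 43 replication genes, 19 mitosis genes and all 14506 genes tested; lines span the 5th to 95th percentile, boxes the 25th to 75th, and the mark is the median. At 24 h the replication genes sit above all genes (median 0.26 against -0.04) and the mitosis genes higher still (0.74), and with time at 300 mOsm/kg both lie below all genes.

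Genes of the deoxynucleotide supply had the highest median of the steps at 24 h, 0.42, with 5 of 5 higher at 300. Tyms, which makes the thymidylate used only for DNA, had levels of 2.07, 1.61 and 1.86 at 300 and 1.02, 1.04 and 1.18 at 640. Every array at 300 was above every array at 640, and the log2 difference was 0.77 ± 0.192 (SE), 1.7-fold, with a limma adjusted p of 0.115. Rrm2, the small subunit of ribonucleotide reductase that is made in S phase, had 2.37, 1.99 and 2.25 at 300 and 1.49, 1.07 and 1.94 at 640. Its groups came close without overlapping, at a difference of 0.70 ± 0.237 (adjusted p = 0.414). The other 3 overlapped between the groups. Tk1, the thymidine kinase of the salvage route, differed by 0.42, Rrm1, the large reductase subunit, by 0.34, and Dut, which removes dUTP, by 0.23.

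Among the polymerases and primase the median was 0.37 and 6 of 7 were higher at 300. Prim1, the catalytic primase subunit that makes the RNA primer, had levels of 2.04, 2.43 and 2.05 at 300 and 1.57, 1.77 and 1.37 at 640. Pole, the catalytic subunit of the leading-strand polymerase epsilon, had -0.36, -0.25 and -0.25 at 300 and -0.80, -0.82 and -0.86 at 640, each group within a narrow band. The groups did not overlap in either gene, with differences of 0.60 ± 0.169 (limma adjusted p = 0.192) and 0.54 ± 0.147 (adjusted p = 0.168). Pold2, the accessory subunit of polymerase delta, showed how far the sets of arrays could spread: 1.68, 2.66 and 1.79 at 300 and 1.40, 2.40 and 1.18 at 640, with both replicates numbered 2 far above the rest. Pola1 differed by 0.37, Pold1, the catalytic subunit of polymerase delta, by 0.22 and Prim2, the regulatory primase subunit, by 0.21, all with overlapping groups. Pola2 was the exception, at -0.38 ± 0.193.

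Of the licensing genes 9 of 9 had a difference of 0 or above, with a median of 0.26. Cdt1, which brings the helicase to the origin, had 0.19, 0.40 and 0.07 at 300 and -0.35, 0.00 and -0.06 at 640, so that the groups did not overlap (0.36 ± 0.16). Mcm2, of the same helicase, did not overlap either, at a difference of 0.26. Mcm5 (0.47), Mcm6 (0.36) and Mcm7 (0.12), the loader Cdc6 (0.33), geminin (Gmnn, the inhibitor of Cdt1, 0.24) and the origin recognition subunits Orc1 (0.15) and Orc6 (0.00) overlapped. In the firing step 3 of 6 were higher, with a median of 0.21. Mcm10, which helps the loaded helicase to start, had levels of -0.04, -0.04 and -0.01 at 300 and -0.52, -0.93 and -0.53 at 640, with no overlap and a difference of 0.63 ± 0.21 (limma adjusted p = 0.389). Cdc45 and Gins1 of the active helicase differed by 0.43 and 0.42, while Gins2 (-0.01), Gins3 (-0.13) and the kinase Cdc7 (-0.03) were near 0.

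The chromatin genes held the second highest value of the list. Uhrf1, which reads half-methylated DNA behind the fork and brings the methyltransferase Dnmt1 to it, had levels of 1.55, 1.60 and 1.70 at 300 and 1.04, 0.62 and 0.99 at 640. Its arrays at 300 lay close together and all above those at 640, at a difference of 0.73 ± 0.181 (limma adjusted p = 0.111). Dnmt1 itself differed by 0.24 without overlap, by a narrow gap (lowest 1.65 at 300, highest 1.64 at 640). Chaf1b, of the factor that deposits new histones, differed by 0.39 with overlap. Slbp, which binds histone messenger RNA, had -0.16. Its probe set was the dimmest of the 43 in every group, with mean levels from -2.63 to -2.08. Of the G1/S regulators, cyclin E2 (Ccne2) had -0.94, -0.57 and -0.27 at 300 and -1.06, -0.95 and -1.28 at 640, with no overlap by a narrow gap (0.50 ± 0.196, adjusted p = 0.637). Cyclin E1 (Ccne1) differed by 0.21 and E2f1, the transcription factor, by 0.14. In the clamp and its loader the median was 0.32 and no gene was free of overlap: Pcna, the clamp, differed by 0.43, Rfc4 by 0.34, Rfc3 by 0.32, Rfc2 by 0.22 and Rfc5 by 0.00. Smallest were the genes of the lagging strand, where the ligase Lig1 (0.14), the flap nuclease Fen1 (0.08) and the single-strand binder Rpa2 (-0.14) had a median of 0.08. Brca1, which protects and repairs forks, differed by 0.25.

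**Figure D2:**
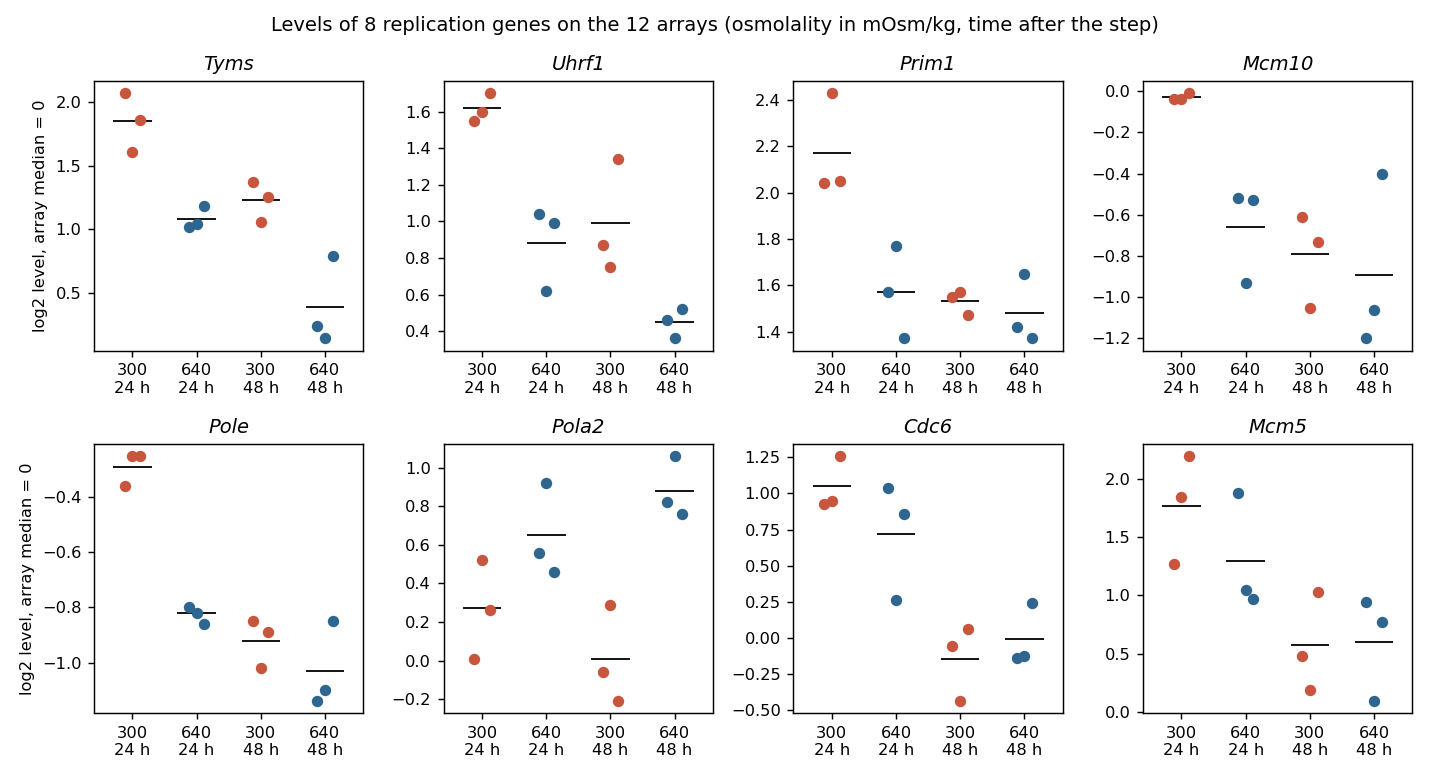
Levels of 8 replication genes, each point 1 array and each bar the mean of 3, as log2 relative to the array median (vertical axis), by group on the horizontal axis (300 and 640 mOsm/kg at 24 h, then at 48 h). Tyms and Uhrf1 are higher at 300 at both times without overlap, Prim1, Pole and Mcm10 at 24 h, and Pola2 is lower at 300 at 48 h.

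After 48 h the genes no longer lay to one side. Of the 43 genes 27 were higher at 300 and 16 lower, where 54.6% of all genes were higher, and the median log2 difference was 0.05 against 0.02 over all genes. By limma 1 gene was called higher (Tyms) and 1 lower (Pola2), beside 0.524% and 1.33% of all genes, and the unadjusted p was under 0.05 for 3 higher and 2 lower genes, beside 3.58% and 4.59%. The arrays at 300 lay above those at 640 without overlap in 7 genes and below in 2, beside 7.83% and 7.02% of all genes. Without 1 array, between 22 and 29 of the 43 were higher at 300.

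At 48 h Tyms was called higher at 300 than at 640. It had levels of 1.37, 1.06 and 1.25 at 300 and 0.24, 0.14 and 0.79 at 640. Every array at 300 was above every array at 640, as at 24 h, and the log2 difference was 0.84 ± 0.192, 1.78-fold (limma adjusted p = 0.036). The difference was 0.71 to 1.04 whichever array was left out, but the call ended without 300 at 24 h replicate 3 (adjusted p = 0.0581), 640 at 24 h replicate 1 (0.0569), each of 300 at 48 h replicates 1, 2 and 3 (0.163, 0.0679 and 0.144), or 640 at 48 h replicates 1 and 2 (0.181 and 0.176). It also ended on the uncentred values (adjusted p = 0.220) and with only the groups compared in the fit (0.0763). Uhrf1 had 0.87, 0.75 and 1.34 at 300 and 0.46, 0.36 and 0.52 at 640, again with no overlap, at 0.54 ± 0.181 (adjusted p = 0.232). Tyms and Uhrf1 were the 2 of 43 genes higher at 300 without overlap at both times, which held for 1.6% of all genes.

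Pola2, of the polymerase alpha and primase complex, was called lower at 300 than at 640 at 48 h. It had levels of -0.06, 0.29 and -0.21 at 300 and 0.82, 1.06 and 0.76 at 640, each array at 300 far below the lowest at 640. The log2 difference was -0.87 ± 0.193, 1.83-fold lower (limma adjusted p = 0.0291). At 24 h the same gene had 0.01, 0.52 and 0.26 at 300 and 0.56, 0.92 and 0.46 at 640, which overlapped (-0.38, adjusted p = 1). The call at 48 h ended without 300 at 48 h replicate 1 (0.115) or 3 (0.168) and without 640 at 48 h replicate 1 (0.0942), 2 (0.136) or 3 (0.0646), with differences from -0.93 to -0.77. It also ended on the uncentred values (0.577) and with arrays centred on all probe sets (0.0784). The other 3 subunits of the complex had 0.06 (Pola1), 0.05 (Prim1) and 0.21 (Prim2), the last without overlap.

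Of the clamp and its loader, which opens the ring of Pcna and closes it round the DNA, 5 of 5 genes were higher at 300 at 48 h, with a median of 0.12. Rfc3 had levels of 1.02, 0.59 and 1.21 at 300 and 0.33, 0.10 and 0.55 at 640, and Rfc4 had -0.27, -0.04 and 0.12 at 300 and -0.55, -0.66 and -0.44 at 640. Both were free of overlap, at 0.61 ± 0.247 and 0.49 ± 0.24 (limma adjusted p = 0.427 and 0.675), while Rfc2 and Pcna had 0.12 each and Rfc5 0.05. The GINS subunits went apart: Gins1 had -1.55, -1.56 and -1.23 at 300 and -1.91, -1.87 and -1.74 at 640 (0.39 ± 0.208), while Gins3 had -0.34, -0.52 and -0.54 at 300 and 0.14, -0.22 and 0.06 at 640 (-0.46 ± 0.157). Neither gene's groups overlapped and neither passed the test, with adjusted p-values of 0.761 and 0.247, and Gins2 had 0.07. Tk1 was free of overlap at 0.24 as well. Of the remaining genes, the licensing factors had a median of 0.00 and a range of -0.14 (Cdc6) to 0.15 (Mcm7). In the other steps Rrm2 had 0.42, Ccne2 0.28, Pold2 0.25 and Chaf1b 0.18 at the upper end, and E2f1 had -0.35, Ccne1 -0.29, Slbp -0.27 and Fen1 -0.19 at the lower.

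**Figure D3:**
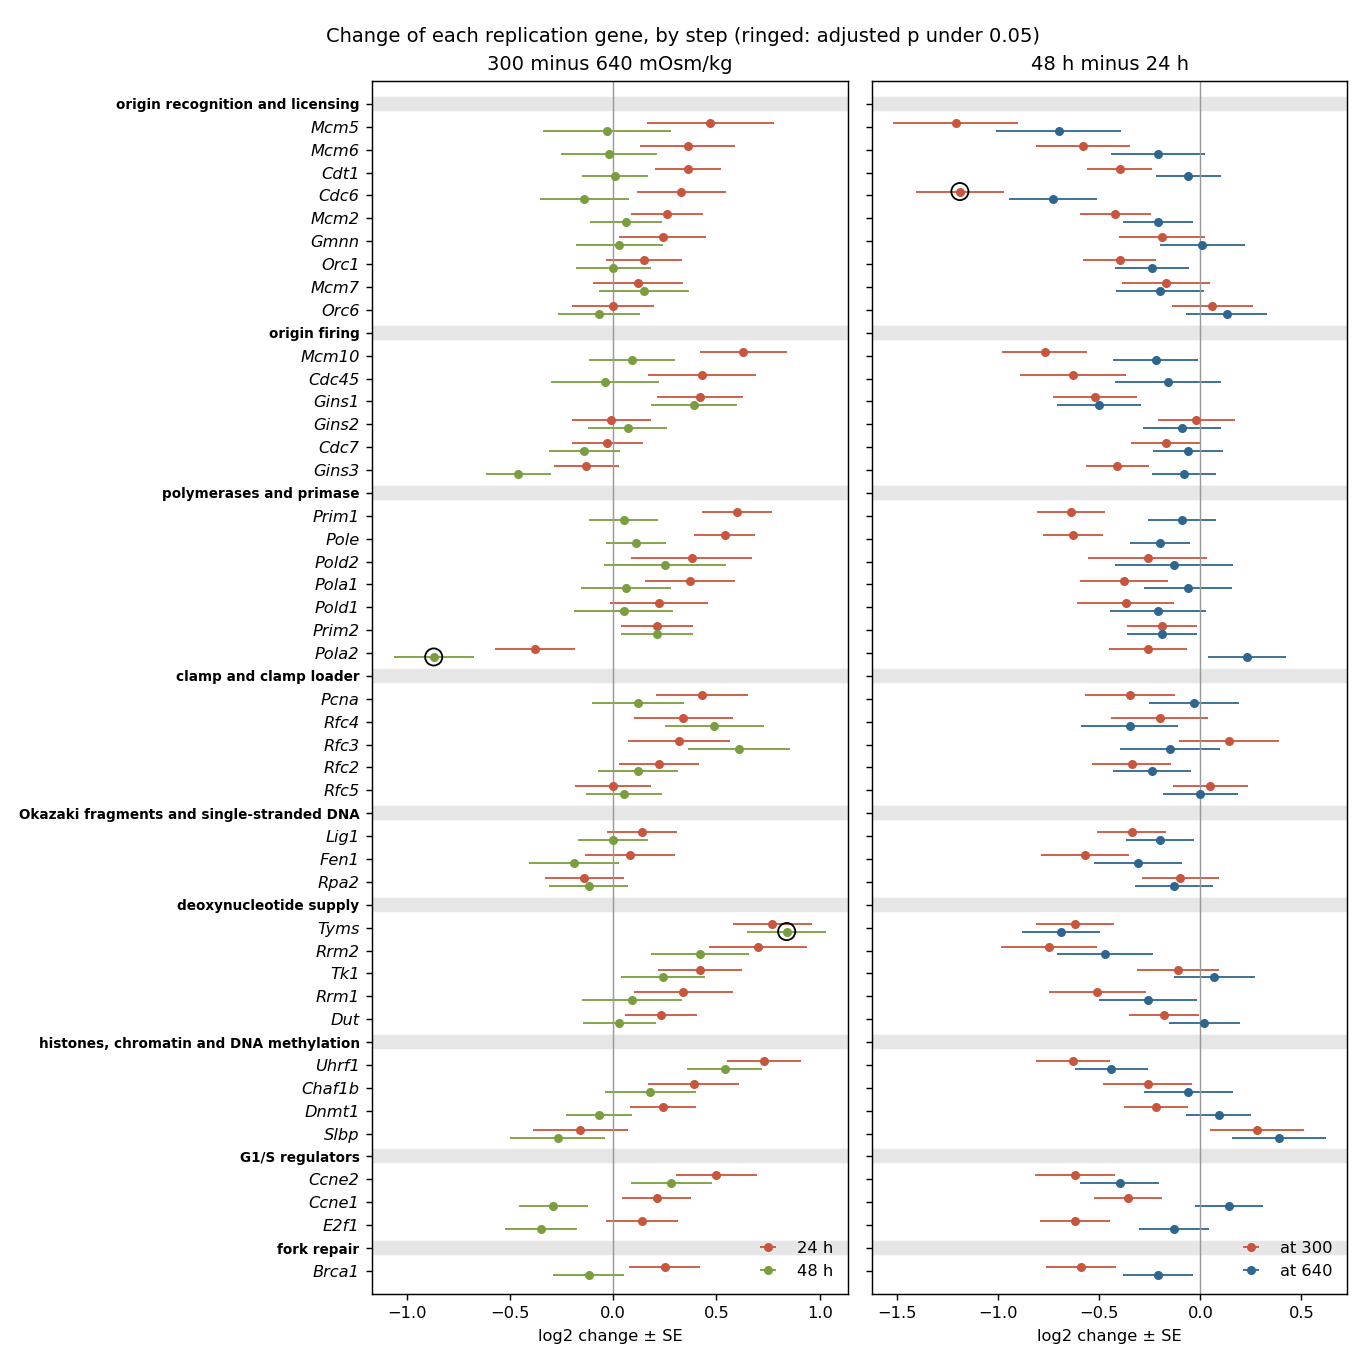
Log2 change ± SE (horizontal axes) of each of the 43 replication genes, grouped by step of replication, for 300 minus 640 mOsm/kg at 24 and 48 h (left) and for 48 h minus 24 h at 300 and at 640 mOsm/kg (right); rings mark an adjusted p under 0.05. Only Tyms and Pola2 are ringed on the left, both at 48 h, and only Cdc6 on the right, at 300.

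The osmolality difference (300 minus 640) was lower at 48 h than at 24 h in 35 of the 43 genes, with a median change of -0.21 against 0.04 over all genes, but none passed the test of this difference. The adjusted p was under 0.05 for 0 of 43 by limma, beside 0.0276% of all genes, and the unadjusted p for 1, lower, beside 0.565%. The values ran from -0.55 ± 0.24 in Prim1 and -0.54 ± 0.297 in Mcm10 to 0.29 ± 0.349 in Rfc3 (adjusted p = 1 in each). For Tyms the change was 0.07 ± 0.272. In 0 genes did the groups separate in opposite directions at the 2 times.

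With time at 300 mOsm/kg, most replication genes were lower at 48 h than at 24 h. Of the 43 genes 39 were lower at 48 h, while 58.6% of all genes were higher, and the median log2 change (48 h minus 24 h) was -0.37 against 0.05. By limma 1 gene fell (Cdc6) and 0 rose, beside 0.0896% and 0.165% of all genes, and 20 genes had an unadjusted p under 0.05, each of them lower, beside 3.01% of all genes. With the replicate number as a block, 2 of the 43 fell, Cdc6 and Rrm2, beside 0.283% of all genes. This block joined same-numbered arrays of all 4 groups, so it was not a pairing of the 2 times at 300 alone. Of the same-numbered arrays, only the replicates numbered 2 resembled each other across osmolalities. In 18 genes all 3 arrays at 48 h lay below all 3 at 24 h, beside 4.85% of all genes, and in 0 above, beside 7.29%. Changes reached a log2 size of 0.5 in 16 genes and of 1 in 2. Without 1 array, between 3 and 7 of the 43 genes were higher at 48 h. The comparison shares its 24 h arrays with the osmolality comparison at 24 h, so the 2 sets of values are not independent.

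Cdc6, the short-lived ATPase that loads the helicase, fell. It had levels of -0.06, -0.44 and 0.06 at 300 for 48 h and 0.93, 0.95 and 1.26 at 300 for 24 h. All arrays at 48 h were below all at 24 h by a wide margin, and the log2 change was -1.19 ± 0.217, 2.29-fold lower (limma adjusted p = 0.0336). The change was -1.30 to -1.05 whichever of these 6 arrays was left out, and the call ended without 300 at 24 h replicate 1, 2 or 3 (0.0509, 0.0945 and 0.219), 300 at 48 h replicate 1, 2 or 3 (0.119, 0.155 and 0.0944) or 640 at 48 h replicate 1 (0.0561). On the uncentred values, where all genes shifted, the adjusted p was 0.0607. At 640 the gene had -0.14, -0.13 and 0.24 at 48 h and 1.04, 0.26 and 0.86 at 24 h, also without overlap, by a narrow gap, at -0.73 ± 0.217 (adjusted p = 0.429).

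Mcm5 had the largest change of the list, -1.21 ± 0.309, and a wider spread. Its levels were 0.48, 0.19 and 1.03 at 300 for 48 h and 1.27, 1.85 and 2.20 at 300 for 24 h, without overlap (limma adjusted p = 0.166). It passed the test without the pair of low-median arrays. At 640 it had 0.94, 0.09 and 0.77 at 48 h and 1.88, 1.05 and 0.97 at 24 h, at -0.70. Its promoter is among those shown above. The other licensing genes at 300 had -0.58 (Mcm6), -0.42 (Mcm2), -0.40 (Orc1 and Cdt1), -0.19 (Gmnn), -0.17 (Mcm7) and 0.06 (Orc6), and Orc1, Cdt1 and Mcm2 were free of overlap.

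The firing genes had a median of -0.47, with 6 of 6 lower at 48 h. Mcm10 had -0.61, -1.05 and -0.73 at 48 h and -0.04, -0.04 and -0.01 at 24 h, a change of -0.77 ± 0.21 (limma adjusted p = 0.208). Cdc45 followed with -0.63, Gins1 with -0.52, Gins3 with -0.41, Cdc7 with -0.17 and Gins2 with -0.02, and of these Gins1 and Gins3 were free of overlap. Of the polymerases and primase 7 of 7 were lower, with a median of -0.37. Prim1 had 1.55, 1.57 and 1.47 at 48 h and 2.04, 2.43 and 2.05 at 24 h, and Pole had -0.85, -1.02 and -0.89 at 48 h and -0.36, -0.25 and -0.25 at 24 h. In both the times were clearly apart, at -0.64 ± 0.169 (adjusted p = 0.182) and -0.63 ± 0.147 (adjusted p = 0.112). The other 5 lay between -0.38 (Pola1) and -0.19 (Prim2) and overlapped.

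In the deoxynucleotide supply 5 of 5 were lower at 48 h, with a median of -0.51. Rrm2 had 1.46, 1.10 and 1.78 at 48 h and 2.37, 1.99 and 2.25 at 24 h, and the change was -0.75 ± 0.237 (limma adjusted p = 0.328). With the replicate block Rrm2 passed the test (0.0422). Tyms had -0.62, Rrm1 -0.51, Dut -0.18 and Tk1 -0.11, and of these 4 only Tyms was free of overlap. All 3 G1/S regulators were lower, Ccne2 and E2f1 at -0.62 without overlap and Ccne1 at -0.36 with it. E2f1 had -1.12, -1.16 and -0.89 at 48 h and -0.47, -0.21 and -0.64 at 24 h (adjusted p = 0.228). Uhrf1 had -0.63, Brca1 -0.59, Fen1 -0.57 and Lig1 -0.34, each free of overlap. Chaf1b (-0.26), Dnmt1 (-0.22) and Rpa2 (-0.10) overlapped, as did Slbp, at the other end of the list with 0.28. The clamp and its loader had a median of -0.20, from -0.35 (Pcna) to 0.14 (Rfc3).

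At a constant 640 mOsm/kg the same direction was seen with smaller values. Of the 43 genes 34 were lower at 48 h, where 50.3% of all genes were higher, and the median log2 change was -0.16 against 0.00. By limma 0 of 43 were called, beside 0.138% of all genes, and the unadjusted p was under 0.05 for 5, each lower, beside 2.92% of all genes. In 6 genes the arrays at 48 h lay below those at 24 h without overlap, beside 4.63% of all genes, and in 0 above, beside 4.95%. Without 1 array, between 7 and 13 of the 43 genes were higher at 48 h. Under array weights 5 genes passed, Cdc6, Gins1, Mcm5, Tyms and Uhrf1, all lower, beside 3.45% of all genes called lower under them. Tyms had 0.24, 0.14 and 0.79 at 48 h and 1.02, 1.04 and 1.18 at 24 h (-0.69 ± 0.192, adjusted p = 0.373). Uhrf1 had 0.46, 0.36 and 0.52 at 48 h and 1.04, 0.62 and 0.99 at 24 h (-0.44 ± 0.181, adjusted p = 0.680). Both were free of overlap. So were, each by a narrow gap, Cdc6, Mcm5, Ccne2 (-0.40) and Prim2 (-0.19). The 5 genes lower at 48 h without overlap at both osmolalities were Cdc6, Mcm5, Tyms, Uhrf1 and Ccne2, beside 1.54% of all genes. The highest values at 640 were 0.39 for Slbp, the dimmest gene of the list, and 0.23 for Pola2.

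**Figure D4:**
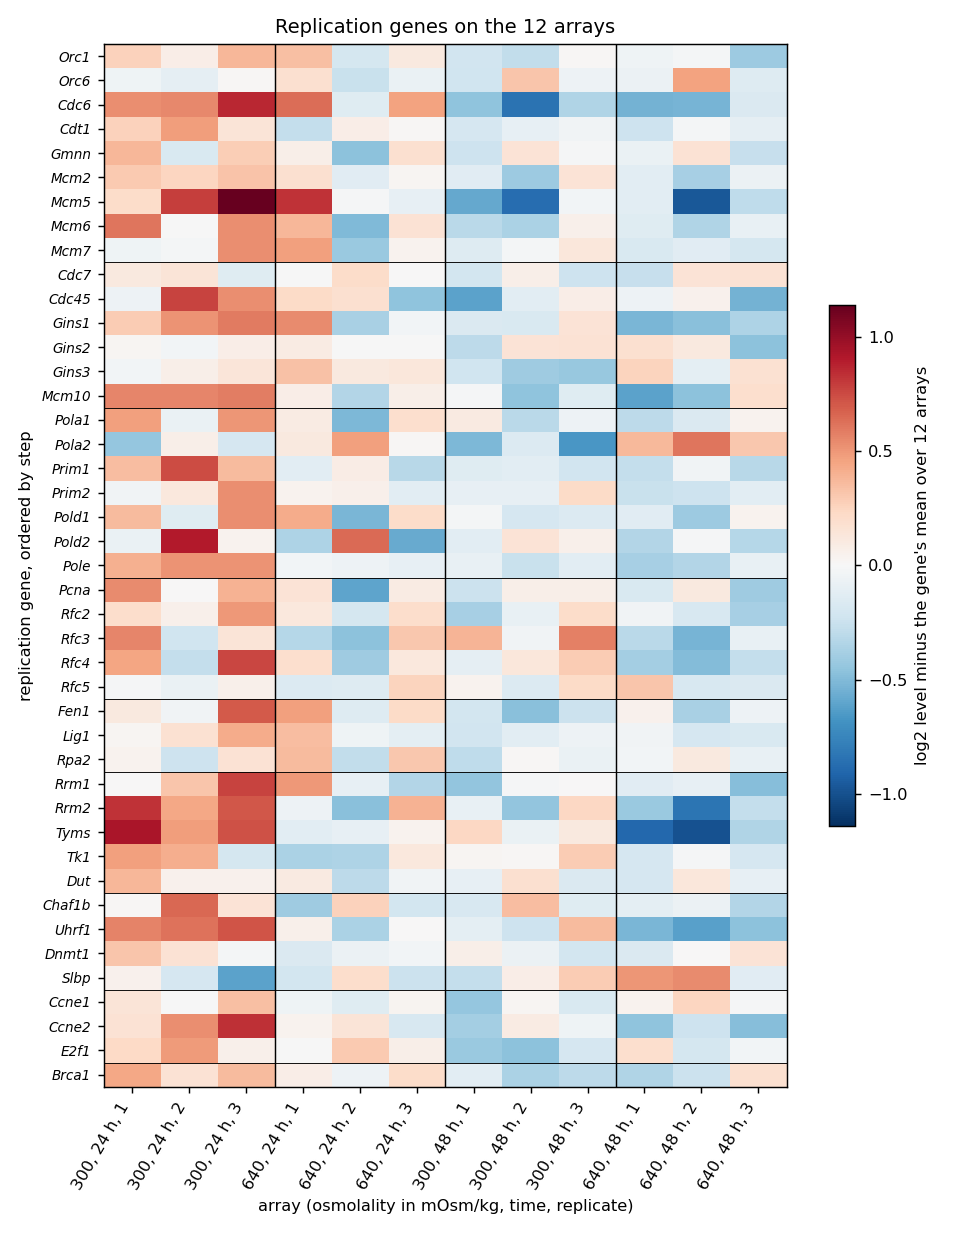
Level of each of the 43 replication genes (rows, by step) on each of the 12 arrays (columns, by group), as log2 relative to the array median and to the gene's mean over 12 arrays (colour scale). The mean was highest at 300 mOsm/kg for 24 h in 34 of the 43 genes. It was highest at 640 mOsm/kg for 24 h in 4 genes and at 640 mOsm/kg for 48 h in 3, Pola2 among these last.

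The median level of the 43 genes on each array is given here as a description. It was 0.30, 0.36 and 0.75 at 300 for 24 h, 0.42, 0.17 and 0.46 at 640 for 24 h, 0.15, 0.10 and 0.12 at 300 for 48 h and 0.10, 0.13 and 0.24 at 640 for 48 h. The groups at 24 h overlapped, as did those at 48 h, and 5 of the 6 arrays at 48 h lay below every array at 24 h.

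Related genes outside the list, 83 measured in 7 groups by function, gave 1 call in each of 3 comparisons and 0 in the other two. At 24 h 68 of 83 were higher at 300, beside 40.9% of all genes, with a median log2 difference of 0.14 against -0.04. The 1 called was Ccna2, the cyclin of S phase and G2, beside 0.276% of all genes called higher. Ccna2 had levels of 0.91, 1.11 and 0.94 at 300 and -0.29, -0.12 and -0.40 at 640 for 24 h. It was higher at 300 by 1.25 ± 0.183, 2.39-fold (limma adjusted p = 0.00483). The arrays at 300 were far above those at 640, and the call held without any 1 of the 12 arrays (adjusted p from 0.00249 to 0.0323), but not on the uncentred values (0.204), with only the groups compared in the fit (0.0502) or without the low-median pair (0.0583). At 48 h it had 0.01, -0.26 and -0.22 at 300 and -1.20, -0.69 and -0.54 at 640, at 0.65 (adjusted p = 0.111). With time at 300 it fell by 1.14 on the log2 scale (adjusted p = 0.0193), a call that ended without 300 at 24 h replicate 2 or 3 (0.0787 and 0.103), without 300 at 48 h replicate 1, 2 or 3 (0.0514, 0.09 and 0.0961) and on the uncentred values (0.107). With the replicate block 3 of the 83 were called lower over time at 300, beside 0.283% of all genes: Ccna2 and, picked after their values were seen, Mybl2 (0.0249) and Ube2t (0.0343). At 48 h 57 of 83 were higher at 300, with a median of 0.07, beside 54.6% and a median of 0.02 over all genes. With time at 300, 58 of 83 were lower (median -0.18), and at 640, 48 of 83 (median -0.05), while 58.6% and 50.3% of all genes were higher.

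By function at 24 h, 12 of 12 other origin and fork factors were higher at 300 (median 0.18), 9 of 13 other polymerase, clamp and Okazaki factors (0.14), 11 of 13 other genes of nucleotide synthesis (0.10), 8 of 9 other replication chromatin factors (0.28), 11 of 13 genes of S phase checkpoint and repair (0.22), 14 of 17 other G1/S regulators (0.07) and 3 of 6 CDK inhibitors (-0.04). Cdkn1c, the inhibitor p57 of cyclin-dependent kinases, was the 1 related gene called at 48 h, beside 1.33% of all genes called lower. It had 0.17, -0.10 and 0.28 at 300 and 1.06, 0.88 and 0.97 at 640, without overlap. It was lower at 300 by 0.85 on the log2 scale (limma adjusted p = 0.0113). That call ended without 300 at 48 h replicate 2 (0.0808), without 640 at 48 h replicate 1 (0.0696) and on the uncentred values (0.388). At 24 h Cdkn1c had -0.65 (adjusted p = 0.122). At 24 h and 48 h cyclin D1 (Ccnd1) had 0.01 and -0.03, the transcription factor Myc 0.07 and 0.19, the inhibitor p21 (Cdkn1a) 0.19 and 0.17 and the inhibitor p27 (Cdkn1b) -0.32 and -0.23, and in these 4 the groups overlapped. The 17 genes of the list of other G1/S regulators, Ccnd1 and Myc among them, ran from -0.54 to 1.25 at 24 h and from -0.69 to 0.65 at 48 h. The highest was Ccna2 at both times, and the lowest Rbl2, a relative of the retinoblastoma protein named after its values were seen.

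Mitosis genes, measured for comparison because they follow S phase in the cycle, had larger values than the replication genes in the same arrays. All 19 were higher at 300 at 24 h, with a median of 0.74, and 5 were called higher. Over all genes 40.9% were higher and 0.276% called higher. Top2a, the topoisomerase that untangles chromosomes, had 2.16, 2.13 and 2.26 at 300 and 1.32, 0.84 and 1.19 at 640. It was higher at 300 by 1.06 without overlap (limma adjusted p = 0.00989, and 0.0727 without 300 at 24 h replicate 3). Bub1, a kinase of the spindle checkpoint, was higher at 300 by 1.25 (0.0201, and 0.127 without 300 at 24 h replicate 3 or 0.0912 without 640 at 24 h replicate 3). Kif20a, a kinesin of cell division, was higher by 0.74 (0.0476, and 0.0424 to 0.223 without 1 array, with the call lost for 11 of the 12). The other two called, Nuf2 of the kinetochore (1.04) and the kinase Aurkb (0.96), were picked after their values were seen (adjusted p = 0.0484 each), and their calls ended for 10 of the 12 arrays left out, with adjusted p-values up to 0.252 and 0.28. On the uncentred values the calls of Top2a, Bub1, Kif20a, Nuf2 and Aurkb ended (0.204, 0.458, 0.608, 0.723 and 0.749). They also ended with only the groups compared (0.12, 0.155, 0.237, 0.155 and 0.324) and without the low-median pair (0.0696, 0.107, 0.171, 0.0973 and 0.108), and those of Nuf2 and Aurkb with arrays centred on all probe sets (0.115 and 0.124). At 48 h all 19 were higher at 300 with a median of 0.52 and 0 were called, beside 54.6% of all genes higher and 0.524% called higher. With time at 300 all 19 were lower, with a median of -0.73, while 58.6% of all genes were higher. Top2a was the 1 called (-1.01, adjusted p = 0.0256), beside 0.0896% of all genes called lower. That call ended without 300 at 24 h replicate 2 or 3 (0.0787 and 0.163), without 300 at 48 h replicate 1, 2 or 3 (0.12, 0.09 and 0.112) and on the uncentred values (0.0607). With the replicate block 4 were called lower, beside 0.283% of all genes: Top2a (0.0126), Kif20a (0.034), Nuf2 (0.0343) and, picked after its values were seen, Ndc80 (0.0346). At 640, 18 of 19 were lower, with a median of -0.39 and 0 called. The difference between the mitosis and the replication list was not tested.

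Markers of cell types moved beside these genes. Aqp2, the water channel that defines the principal cell of the collecting duct, had levels of 0.33, -0.18 and -0.14 at 300 and 4.34, 2.76 and 3.85 at 640 for 24 h, and 0.45, -0.37 and 0.57 at 300 and 4.78, 4.54 and 4.56 at 640 for 48 h. The marker was thus present in the cells kept at 640, and it was lower at 300, with log2 differences of -3.65 and -4.41 (limma adjusted p = 5.62e-05 and 2.88e-06). Of 9 principal cell markers 2 were called lower at 24 h (Aqp2 and the vasopressin receptor Avpr2), beside 0.379% of all genes. At 48 h 4 of the 9 were called lower (these, the water channel Aqp3 and the urea transporter Slc14a2), beside 1.33%. Their mean level per array was -0.36 to -0.08 at 300 and 0.50 to 0.88 at 640 for 24 h, and -0.31 to 0.01 at 300 and 0.96 to 1.09 at 640 for 48 h. Of 6 general epithelial markers 0 were called in any of the 5 comparisons, with a mean level between 4.33 and 5.09 over all arrays. All 6 were nonetheless higher at 48 h than at 24 h at both osmolalities (medians 0.40 at 300 and 0.21 at 640). Higher at 300 than at 640 were 4 of 6 at 24 h (median 0.15) and 5 of 6 at 48 h (0.25).

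All 9 fibroblast markers were higher at 48 h than at 24 h at both osmolalities, beside the lower replication genes, with medians of 1.07 at 300 and 1.13 at 640. Collagen Col1a1, the matrix protein Dcn and the receptor Pdgfrb were called at both osmolalities, and the matrix protein Postn at 300. Over all genes 0.165% were called higher at 300 and 0.138% at 640. At 300 the replicate block gave 7 calls of these 9 and 1 of 7 macrophage markers (Lyz2), beside 51 of all 14506 genes called higher. The mean level of the fibroblast list was 0.41 to 0.73 at 300 for 48 h and -0.53 to -0.28 at 300 for 24 h, and 0.32 to 0.54 at 640 for 48 h and -0.74 to -0.26 at 640 for 24 h, so that the times did not overlap. Between osmolalities 1 of the 9 was called, Postn, higher at 300 at 48 h (1.22). Of 6 endothelial markers Emcn (-1.32) and of 7 macrophage markers Csf1r (-0.69) were called lower at 300 at 48 h, and of 6 intercalated cell and 5 proximal tubule markers 0 were called in the 5 comparisons. The mean level over all arrays was -0.96 to -0.11 for the endothelial list, -1.50 to -0.68 for the macrophage list, -2.80 to -1.96 for the intercalated cell list and -2.09 to -1.70 for the proximal tubule list. A rise with time was not limited to fibroblast markers. At 300 and 640, 5 and 6 of 7 macrophage markers were higher at 48 h (medians 0.59 and 0.67), as were the epithelial markers above. So were 5 and 7 of 9 principal cell, 5 and 5 of 6 intercalated cell and 5 and 4 of 6 endothelial markers. Proximal tubule markers were higher in 1 and 4 of 5, beside 58.6% and 50.3% of all genes. The calls of Aqp2, Aqp3, Slc14a2, Dcn, Avpr2 at 48 h and Postn between osmolalities held whichever of the 12 arrays was left out, while those of Avpr2 at 24 h, Emcn, Csf1r, Col1a1, Pdgfrb and Postn over time ended for 2 to 8 of the arrays (limma adjusted p up to 0.269). On the uncentred values the calls of Avpr2 at 24 h, Emcn and Csf1r ended (0.178, 0.382 and 0.47), as did those of the fibroblast markers over time. These markers other than Aqp2 were named after their values were seen. The part of any of these cells in the changes of the replication genes was not tested.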

How the data were processed

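The values analysed are the log2 levels of probe sets that the authors deposited, made with RMA (background correction, normalization and probe summary) run with Affymetrix Power Tools, per the submitters' processing notes. Versions, and whether all arrays were processed together, are not given in the sources used here. Groups came from the sample titles, the treatment labels and the design. Codes in the descriptions disagree with these for 300 at 24 h and for 640 at 48 h and were not used.

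The platform's gene table gave a single symbol for 15310 of 27596 probe sets and several for 323, and it did not list 11963. Where a gene had several, the brightest on average was kept, which gave 14506 genes, and each array was centred on its median over them. limma 3.58.1 in R 4.3.3 (lmFit, eBayes) fitted the means of the 4 groups together on the 12 arrays, with 8 residual degrees of freedom, with Benjamini-Hochberg adjustment over all genes and a threshold of 0.05. Errors of changes are moderated standard errors. No detection calls were used, so low levels have no known limit. The fit was tested on simulated data with independent noise on each array. Such data lack the sets of resembling arrays seen here, so that test says nothing of their effect on the calls.

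All measured replication genes are given. Of related lists (other origin and fork factors; other polymerase, clamp and Okazaki factors; other nucleotide synthesis; other replication chromatin factors; S phase checkpoint and repair; other G1/S regulators; CDK inhibitors) up to 4 called genes per comparison, and of mitosis genes up to 3, were named by smallest adjusted p, with Ccna2, Cdkn1a, Cdkn1b, Ccnd1, Myc and Aqp2 by name. The genes, lists and tests were chosen with earlier results of these data known. Alternatives were the uncentred values, other centring and normalization, leaving out the dimmest 30% of genes, other eBayes settings, array weights, the mean of probe sets, a replicate block, a fit on only the groups compared, and leaving out single arrays or the low-median pair at 24 h. The deviations of same-numbered arrays across the 2 times correlated at 0.46, 0.43 and 0.12 at 300 and at 0.03, 0.46 and 0.36 at 640. Arrays of different number were not compared across times, so these values cannot show whether the number pairs them, and the labels do not say so. For changes over time the replicate block joined same-numbered arrays of all 4 groups. For comparisons between osmolalities it joined those of the same time. Promoter windows came from RefSeq (GRCr8).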

Additional observations from a re-analysis of the deposited data

How the results depend on the processing

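The limits are 3 arrays per group, an unstated origin of the replicates, an unknown limit of detection, and arrays of different scale. Over 215 comparisons of a gene and 23 alternatives, 4674 of 4940 values kept their direction and side of the threshold, 24 called values were no longer called, 39 became called (37 of them under array weights), 203 uncalled values changed sign and 0 called values did. Other eBayes settings, only the groups compared, the replicate block and leaving out arrays of groups not compared leave a gene's log2 change as it is. Under these only the p-value could move, so part of the kept directions was fixed in advance. All genes called numbered 95, 269, 37, 20 and 4 for osmolality at 24 h, at 48 h, time at 300, time at 640 and the change of the osmolality difference. On the uncentred values they numbered 13, 104, 0, 0 and 0, and under array weights 1595, 499, 1907, 986 and 10. With only the groups compared they numbered 10 at 24 h, and without the low-median pair 17 at 24 h, 219 and 34 over time at 300 and 640 and 0 for the last. That last count was 2 with arrays centred on all probe sets, with cyclic loess and with quantile normalization. Without 1 array the counts were 26 to 78, 158 to 296, 7 to 50, 6 to 19 and 0 to 4. Replication genes called numbered 10 at 24 h under array weights. At 48 h they numbered 0 on uncentred values, 1 with centring on all probe sets, 1 with only the groups compared and 0 to 2 without 1 array. With time at 300 they numbered 0 on uncentred values, 22 under array weights, 2 without the low-median pair and 0 to 1 without 1 array. Of the 22, 1 was higher at 48 h and 21 were lower. Of all 14506 genes 1236 were called higher and 671 lower under these weights. At 640 replication genes called numbered 5 under array weights. On uncentred values the median change of the replication genes was -0.80 at 300 and -0.58 at 640, where that of all genes was -0.38 and -0.41, so relative to all genes it was -0.42 and -0.17. The cause of these changes was not tested.

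Replicate numbers matched the arrays that resembled each other across osmolalities only for the replicates numbered 2. Same-numbered arrays had correlations of deviations of -0.13, 0.84 and -0.21 at 24 h and -0.23, 0.80 and -0.22 at 48 h. With the replicate number as a block, 92 genes were called over time at 300, 35 over time at 640, and 2 replication genes (Cdc6 and Rrm2) at 300, while Tyms and Pola2 were called at 48 h as without it. Over the replication genes the block changed no other call.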

Other observations

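Ribonucleotide reductase had a second named probe set for each subunit. For Rrm2 the second probe set had log2 differences between 300 and 640 mOsm/kg of 0.74 at 24 h and 0.37 at 48 h, and changes from 24 h to 48 h of -0.69 at 300 and -0.33 at 640, beside 0.70, 0.42, -0.75 and -0.47 for the probe set used above. For Rrm1 the second probe set gave 0.22, 0.01, -0.19 and 0.02 in the same order, beside 0.34, 0.09, -0.51 and -0.26, and its mean level was -2.52 at 300 and -2.75 at 640 for 24 h.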
